A study of Mus musculus with 5 samples.

Results

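Promoters that were open in naïve CD8+ T cells of both genotypes, but stood higher in the WT ranking of DNase signal than in the dKO ranking, are described here. They are 1580 of the 9884 autosomal promoters with a DNase peak in both genotypes. Open chromatin was measured by DNase-seq in sorted splenic cells of 3 WT replicates and 2 dKO replicates, the latter without the transcription factors Tcf1 (gene *Tcf7*) and Lef1. Replicates were pooled before peaks were called, and each pool has 1 deposited peak list, with 31116 WT and 25525 dKO peaks. The pools held 83923734 and 62242963 fragments after filtering. The pooled lists hold no values per replicate, so no spread between replicates and no p-value between genotypes can be given from them.

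Both groups carried the *hCD2-Cre* transgene, which drives Cre mainly in mature T cells, and a *Rosa26* GFP reporter that marks cells in which Cre was active. WT mice had unaltered *Tcf7* and *Lef1* alleles, and dKO mice had floxed alleles of both genes. The mice were young adults of both sexes on a C57BL/6 background. The cells were sorted as GFP+ and TCRbeta+, with low to medium CD44 and a naïve phenotype.

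Tcf1 and Lef1 are related DNA-binding proteins of the HMG family, which bend DNA at short AT-rich sites and maintain the identity and the persistence of T cells. DNase I cuts DNA where nucleosomes are displaced, so a peak marks an accessible stretch such as an active promoter or enhancer. Many mammalian promoters lie in CpG islands, which are rich in G and C and are accessible in most cell types.

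To show what such promoters look like, the bases around the WT summit are given for 6 of them. All positions are from the mm9 (NCBIM37) mouse genome, and each sequence runs 5′ to 3′ on the strand of the gene, within 75 bp of the summit and outside annotated untranslated regions. Capitals mark GGGCGG (SP/KLF), CCAAT (NFY) and TGNGGT (RUNX), on either strand. *Prkcz* had the largest difference in rank and *Icam1* the largest among adhesion molecules named here. *Irf8* and *Klf2* encode transcription factors, *Cd8b1* encodes the beta chain of the CD8 coreceptor, and *Lef1* is one of the deleted genes. The stretches lie at chr4:154735552-154735702 (minus strand, upstream of *Prkcz*), chr9:20820282-20820403 (plus strand, upstream of *Icam1*) and chr8:123260080-123260230 (plus strand, upstream of *Irf8*). The others lie at chr8:74842841-74842931 (plus, upstream of *Klf2*) and chr6:71272649-71272799 (plus, upstream of *Cd8b1*). The *Lef1* stretch at chr3:130815225-130815375 (plus strand) lies upstream of the nearest start and within an intron of another annotated *Lef1* transcript.
Prkcz: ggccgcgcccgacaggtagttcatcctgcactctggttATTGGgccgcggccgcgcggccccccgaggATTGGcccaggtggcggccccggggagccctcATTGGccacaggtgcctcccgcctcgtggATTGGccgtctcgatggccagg
Icam1: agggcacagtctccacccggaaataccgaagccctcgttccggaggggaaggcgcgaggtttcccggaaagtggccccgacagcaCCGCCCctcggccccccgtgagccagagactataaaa
Irf8: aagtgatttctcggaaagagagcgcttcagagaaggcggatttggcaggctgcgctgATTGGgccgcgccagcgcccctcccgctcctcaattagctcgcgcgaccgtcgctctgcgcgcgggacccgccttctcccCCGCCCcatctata
Klf2: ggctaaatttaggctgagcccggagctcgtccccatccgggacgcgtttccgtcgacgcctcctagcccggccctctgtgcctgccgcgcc
Cd8b1: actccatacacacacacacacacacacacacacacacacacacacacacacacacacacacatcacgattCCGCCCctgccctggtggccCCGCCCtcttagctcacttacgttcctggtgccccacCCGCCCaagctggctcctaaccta
Lef1: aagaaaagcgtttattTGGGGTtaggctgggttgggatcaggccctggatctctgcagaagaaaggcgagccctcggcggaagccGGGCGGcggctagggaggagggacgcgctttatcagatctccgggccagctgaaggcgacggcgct

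The core sequence that Tcf1 and Lef1 recognise, ATCAAAG, lay within 100 bp of the summit in 27 of the 1580 promoters. The 8 of them with the largest rank difference are shown because they carry the letters of the deleted factors' own site, in capitals, with 11 bases on each side. They are at chr9:113701903-113701931 (minus strand, at *Clasp2*), chr3:100833345-100833373 (plus, at *Cd101*), chr11:77615122-77615150 (minus, at *Myo18a*) and chr11:108781730-108781758 (minus, in the untranslated region of *Axin2*). The remaining ones are at chr17:33979958-33979986 (plus, at *Cd320*), chr1:152841040-152841068 (minus, at *Hmcn1*), chr4:140255917-140255945 (plus, at *Rcc2*) and chr5:116479267-116479295 (plus, at *Gm13842*).
Clasp2: aaagccagcccATCAAAGgcagctctgtg
Cd101: atggtagaaacATCAAAGttataagactt
Myo18a: gatggttccccATCAAAGctccccaaatc
Axin2: gccaggaccttATCAAAGcgcagccggct
Cd320: ggagccctaaaATCAAAGtacccttgtat
Hmcn1: ccccaaggaagATCAAAGaaccatccatc
Rcc2: taatgttttatATCAAAGcatcacggctt
Gm13842: agtgagcttatATCAAAGagggcattggt

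The lists carried the promoters of the sorted cell type. Of 14 genes that define CD8+ T cells, 13 had a promoter peak in the WT list and 12 in the dKO list. *Thy1* had none in either list and *Cd3d* had one in the WT list only. Of 18 annotated autosomal B cell markers, *Pou2af1* alone had a WT promoter peak, and none had a dKO promoter peak. Of 18 myeloid markers, *Itgam*, *Cebpb* and *Fcgr3* had a WT promoter peak and none had a dKO one. *Cd4* and *Zbtb7b*, which define the CD4 lineage, had no promoter peak in either list, nor had *Ikzf2*. The other annotated autosomal markers of CD4 and regulatory T cells, *Il2ra*, *Ctla4* and *Nrp1*, had one in both lists. Of 12 NK cell markers, 4 had a WT and 3 a dKO promoter peak, among them *Il2rb* and *Nkg7*, which T cells can express as well. None of the 5 shared promoters of NK markers or the 3 of CD4 markers was a member. The median difference of the NK marker promoters was -7.95 points, only 1 of them lay above 0, and *Nkg7* ranked higher in dKO at its start (67 WT and 79 dKO fragments, -23.7 points). The B cell and myeloid markers had no shared promoter. The promoter of *Tcf7* gave no shared pair, since no WT summit lay within 1000 bp of its starts.

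The members were selected on the deposited pileup, taken here as the number of a pool's kept fragments that cover the summit. Each pileup was turned into a percentile of its own full list, and pairs were kept when the WT percentile lay 20 or more points above the dKO one. Of the 9884 shared promoters, 1580 (16.0%) passed in this direction and 163 (1.65%) in the other. The median difference over all shared promoters was already 6.15 points in favour of WT, with quartiles of 0.233 and 14.9. The 1580 promoters are thus the upper end of a distribution that leans to WT as a whole. When percentiles were taken within the shared promoters alone, which removes that lean, 506 passed in favour of WT and 545 in favour of dKO. When the overall median was subtracted, 850 and 339 passed.

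**Figure D1:**
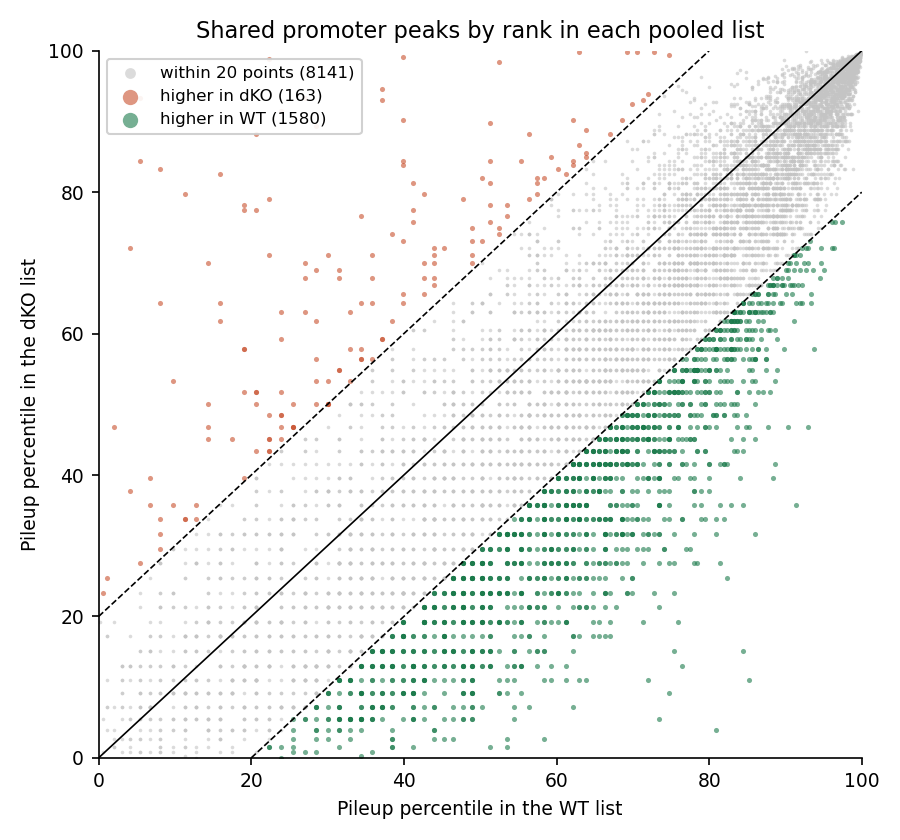
Pileup percentile of each of the 9884 shared promoters in the WT list (horizontal axis) and in the dKO list (vertical axis), with 1 point per pair of peaks. The solid line marks equal rank and the dashed lines a difference of 20 points, beyond which lie 1580 pairs higher in WT (green) and 163 higher in dKO (orange).

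The plot of both rankings shows where these promoters lie. Their median WT pileup was 68 fragments, at percentile 63.9, and their median dKO pileup was 33 fragments, at percentile 33.7. The median difference was 26.9 points and the largest 77.0. Most members therefore stood in the upper middle of the WT list and in the lower middle of the dKO list. After scaling to the fragments kept in each pool, the median ratio of WT to dKO pileup was 1.52 (log2 0.60), against 1.15 (log2 0.20) over all shared promoters. A lower signal in all dKO cells and a closed promoter in some of them cannot be told apart in such bulk pools.

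The differences were graded. Of the members, 618 differed by 20 to 25 points, 410 by 25 to 30, 394 by 30 to 40, 133 by 40 to 50, and 25 by 50 or more. Around the threshold, *Cebpg*, which encodes a leucine zipper factor, stood at percentile 85.6 in WT and 65.6 in dKO, a difference of 20.02 points. *Psmd2*, a proteasome subunit, and *Dnaja1*, a chaperone, both had 103 WT and 52 dKO fragments and a difference of 20.04 points. Just outside were *Fam117a* at 19.99 points, the sugar transporter gene *Slc50a1* at 19.98 and *Adal* at 19.95. Promoters on the 2 sides of the threshold are thus hardly apart, and 1 fragment more or less shifts a percentile by up to 1.65 points in the WT list and 2.13 in the dKO list.

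Counting error was wide at these depths. The ratio exceeds 1 in all members, as they were selected on the same pileups, and yet its exact 95% interval, computed from the fragments at both summits, includes 1 in 816 of the 1580. The interval lay wholly above 1 in the other 764 (48.4%), against 1349 of all 9884 shared promoters (13.6%). The interval lay wholly above the median ratio of all shared promoters (1.15) in 301 members and in 359 of all 9884. Since selection and interval use the same pileups, these differences follow in part from the selection. These intervals cover counting error within the pools and not the spread between mice. Other values of the same peaks leaned the same way, as they come from the same fragments: the WT peak was the wider one in 1355 members (85.8%), with median widths of 248 and 179 bp, and in 7369 of all shared promoters (74.6%), with 281 and 234 bp. The fold enrichment over local background had medians of 9.66 in WT and 6.93 in dKO, against 10.7 and 9.78 over all shared promoters. Ranked by fold enrichment instead of pileup, 1576 members still stood higher in WT, but 1049 (66.4%) by 20 points or more. Of all shared promoters 6627 (67.0%) stood higher in WT by that ranking, 1315 (13.3%) by 20 points or more.

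The largest difference belonged to *Prkcz*, which encodes the atypical protein kinase C zeta. Its summit, 157 bp upstream of the start, was covered by 95 fragments in WT (percentile 80.9) and 18 in dKO (percentile 3.91). The depth-scaled ratio was 3.91, with a counting interval of 2.35 to 6.89. The promoter thus ranked in the upper part of the WT list and among the weakest peaks of the dKO list.

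Of the 12 largest differences, 9 were at protein-coding genes. *Clasp2*, which encodes a protein of growing microtubule ends, had 81 fragments in WT (percentile 73.4) and 19 in dKO (percentile 5.45). *Mtap*, an enzyme of methionine salvage, had 83 and 21 fragments. *Man1c1*, a mannosidase of the Golgi, had 84 and 24. These 3 genes are active in many cell types, whereas *Fsip1* and *Zpbp2* are known from sperm. *Fsip1* had 79 WT and 22 dKO fragments, and *Zpbp2*, at chromosome 11, had 98 and 29. *Prelid2*, on chromosome 18, had 85 and 26. The noncoding or pseudogene starts of *Gm15200*, *Gm12742* and *Gm15340* made up the rest, with differences of 74.2, 69.3 and 63.4 points.

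Immune genes were among these 12 as well. *Icam1* encodes an adhesion ligand for leukocytes, and its promoter had 62 fragments in WT (percentile 58.4) and 17 in dKO (percentile 2.67). *Zc3h12d* encodes an RNA-binding protein that limits cytokine messages, and its promoter had 125 fragments in WT (percentile 91.4) and 34 in dKO (percentile 35.8). The scaled ratios were 2.70 (counting interval 1.56 to 4.94) for *Icam1* and 2.73 (1.85 to 4.11) for *Zc3h12d*.

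Among the strongest WT promoters few were members, since a peak near the top of the WT list can pass only if it drops far. Of the 2436 shared promoters above percentile 90 of the WT list, 46 were members (1.89%, 95% Wilson interval 1.42 to 2.51). Between percentiles 40 and 50 the share was 32.4%, and below percentile 20 no pair could pass. The 6 members with the highest WT percentile were *Vps33a*, a protein of lysosome fusion, *Lrrc20*, *Cbfa2t2*, a transcriptional corepressor, *Rassf1*, a Ras effector, *Maz*, a zinc finger factor, and *Hnrnpr*, an RNA-binding protein. *Vps33a* had 161 WT fragments (percentile 97.4) and 63 dKO fragments (percentile 75.8). Its ratio of 1.90 (counting interval 1.41 to 2.58) was like that of *Cbfa2t2*, at 1.90 (1.40 to 2.61).

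**Figure D2:**
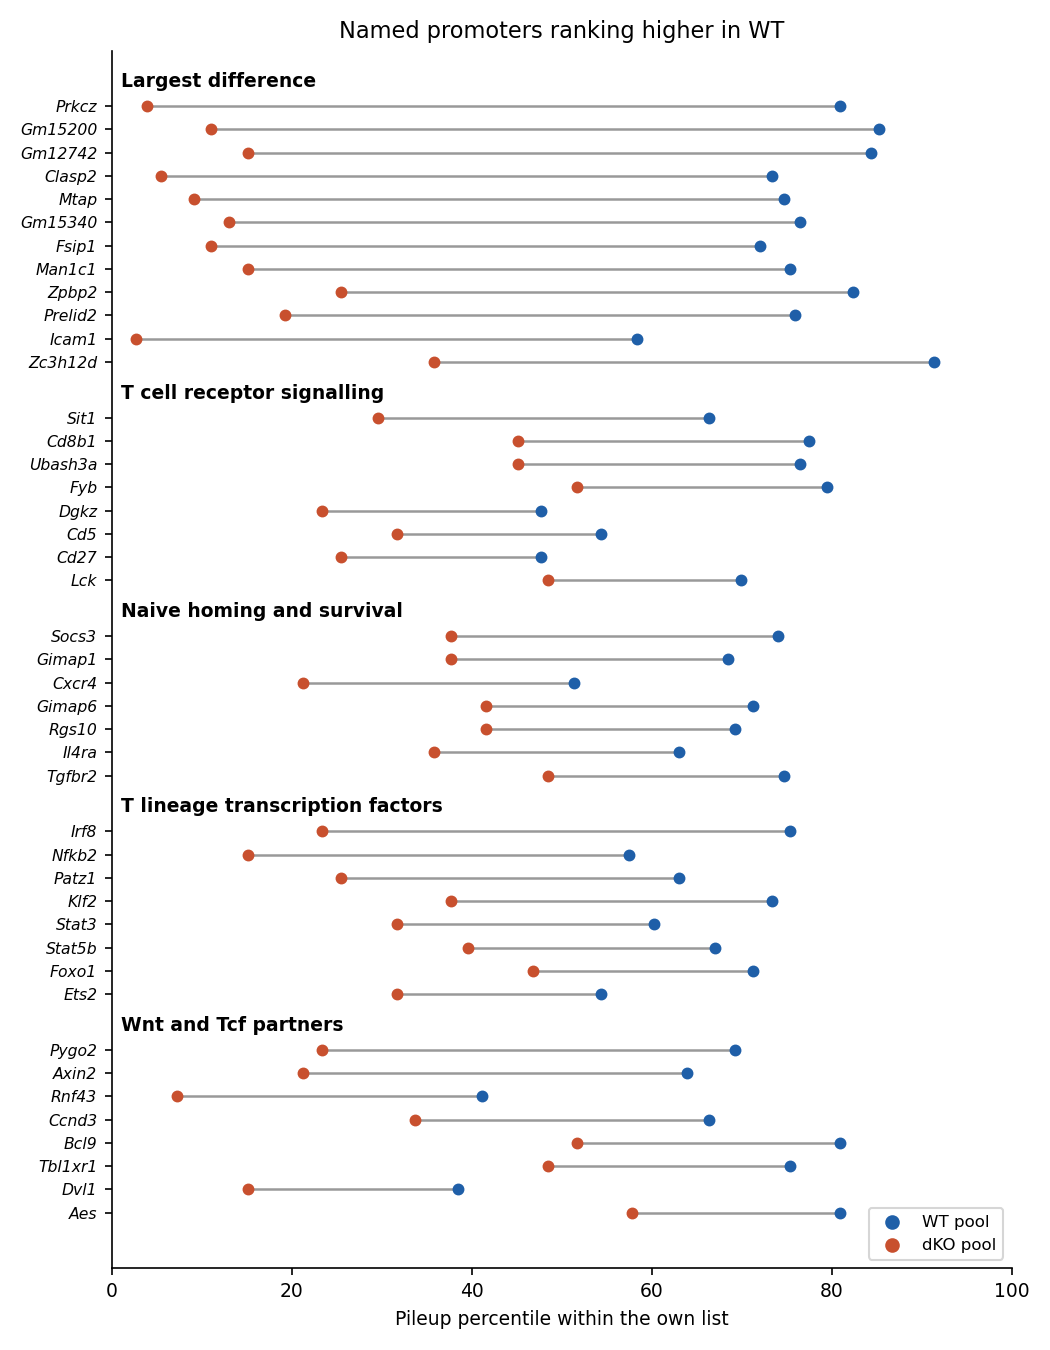
Pileup percentile within the WT list (blue) and within the dKO list (orange) for named promoters, grouped by the largest difference and by gene list; a line joins both values of a promoter. *Prkcz* runs from 80.9 to 3.91, while most promoters of T cell genes run over 20 to 40 points.

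Genes of naïve T cell homing and survival held the highest share of members among the lists of immune function. Of their 39 shared promoters 13 were members (33.3%, Wilson interval 20.6 to 49.0), against 16.0% over all shared promoters, and their median difference was 15.1 points against 6.15. The gene lists were written by hand with earlier results of these data known, so this share describes the list and tests no pattern. *Cxcr4*, a chemokine receptor, had 55 fragments in WT and 27 in dKO at a summit 988 bp inside the gene, while the summit 347 bp upstream of its start had 98 and 67 and differed by only 3.35 points. *S1pr1*, the receptor that lets T cells leave lymph nodes, had 87 and 45. Members among genes of cytokine signalling were the inhibitors *Socs3* (82 and 35 fragments), *Cish* (55 and 30) and, at 1 of its 3 shared summits, *Socs1* (62 and 34). The receptor genes *Il4ra* (67 and 34) and *Tgfbr2* (83 and 41) were members too. Other genes of cytokine signalling were no members, such as *Jak2* (-12.2 points), *Jak1* (-4.77 and -0.724), *Ifngr1* (0.15) and *Tgfbr1* (15.15). The *Tgfbr2* values are those of a summit 721 bp upstream, and the summit at the start itself had 48 and 39 fragments and differed by -2.51 points. The counting intervals at the member summits of *Cxcr4*, *S1pr1*, *Cish*, *Socs1* and *Il4ra* include 1, while those of *Socs3* and *Tgfbr2* lie above 1.

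The GTPase genes *Gimap1* and *Gimap6*, which support lymphocyte survival, stood 30.8 and 29.7 points higher in WT, while *Gimap5* (-9.80 points) and *Gimap8* (3.13) were no members. *Rgs10*, a regulator of G protein signalling, and *Mcl1*, an inhibitor of apoptosis, followed with 27.7 and 23.4 points. The counting interval of the *Mcl1* member (0.829 to 2.39) includes 1. Other naïve T cell promoters fell short of the threshold, with 16.5 points at *Ccr7* and 11.3 points at *Il7r*. *Itgb7*, an integrin chain of gut homing, went the other way with 38 WT and 84 dKO fragments.

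For the T cell receptor and its signalling proteins, 11 of 51 shared promoters were members (21.6%, Wilson interval 12.5 to 34.6), and the median difference was 4.16 points. Their median thus lay below that of all shared promoters although their share of members lay above it. *Cd8b1*, the beta chain of the CD8 coreceptor, had 88 fragments in WT (percentile 77.5) and 39 in dKO (percentile 45.1), a ratio of 1.67 (counting interval 1.14 to 2.51). *Cd8a*, its partner chain, was no member, with 41 WT and 31 dKO fragments and a difference of 3.38 points.

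The 11 members include *Sit1*, an inhibitory adaptor (71 WT and 31 dKO fragments), *Ubash3a*, a suppressor of receptor signals (86 and 39), and *Dgkz*, a kinase that removes diacylglycerol (52 and 28). *Cd5*, an inhibitory surface receptor, had 58 and 32. A second *Sit1* summit, 955 bp inside the gene, had 43 and 44 fragments and differed by -17.5 points. *Ptpn6*, the inhibitory phosphatase SHP-1, had 38 and 20, and *Cd6*, a surface receptor related to *Cd5*, had 42 and 23. Some inhibitors of the list were no members, with -1.47 points at *Cblb*, -2.57 at *Lax1*, and 0.0832 and -5.77 at *Ptpn22*. *Cd48* ranked higher in dKO (-36.5 points). Further members were the adaptor gene *Fyb* (92 and 43 fragments), the costimulatory receptor gene *Cd27* (52 and 29) and the kinase gene *Lck*. *Lck* has 2 shared summits near its starts: one had 76 WT and 41 dKO fragments, a difference of 21.5 points, and the other 69 and 53, a difference of -0.882. The counting intervals at the member summits of *Dgkz*, *Cd5*, *Ptpn6*, *Cd6*, *Cd27* and *Lck* include 1.

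Of 74 shared promoters of T lineage transcription factors, 10 were members (13.5%, Wilson interval 7.51 to 23.1), with a median difference of 2.33 points. Both values lie below the 16.0% and 6.15 points of all shared promoters, so the members named next do not stand for the list. *Irf8*, an interferon regulatory factor, led with 84 fragments in WT (percentile 75.3) and 28 in dKO (percentile 23.4). Its ratio was 2.23, with a counting interval of 1.44 to 3.55. *Klf2*, which maintains the trafficking programme of naïve T cells, had 81 and 35 fragments, and *Foxo1*, which acts upstream of it, had 78 and 40. These factors were joined by *Nfkb2*, *Patz1*, *Stat3*, *Stat5b* and *Ets2*, with differences between 22.7 and 42.3 points. The counting intervals of *Stat3* (0.956 to 2.34), *Stat5b* (0.981 to 2.28), *Foxo1* (0.976 to 2.17) and *Ets2* (0.859 to 2.14) include 1. Ranked by fold enrichment, *Stat5b* differed by only 0.945 points, with values of 6.16 in WT and 6.49 in dKO, and *Ets2* (17.2 points) and *Foxo1* (16.9) fell below the threshold too. In the other direction passed *Nfkb1*, with 37 WT and 57 dKO fragments at 1 of its 3 shared summits (-43.0 points), and *Runx1*, with 18 and 28 at 1 of 3 (-22.8 points).

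One of the deleted genes was itself a member. The *Lef1* summit 415 bp upstream of the nearest start had 60 fragments in WT (percentile 56.4) and 33 in dKO (percentile 33.7), a difference of 22.7 points and a ratio of 1.35 (counting interval 0.868 to 2.13). A second *Lef1* summit, 376 bp downstream of a start, had 54 and 37 fragments and differed by 8.66 points. Where the deleted exons lie relative to these summits was not analysed here, so neither checks the deletion.

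Genes of the Wnt pathway and cofactors of Tcf proteins had 9 members among 32 shared promoters (28.1%, Wilson interval 15.6 to 45.4) and a median difference of 6.27 points, against 16.0% and 6.15 points over all shared promoters. *Pygo2*, which encodes a coactivator of beta-catenin, had 75 fragments in WT (percentile 69.2) and 28 in dKO (percentile 23.4). *Axin2*, a feedback inhibitor and a classical target of the pathway, had 68 (percentile 63.9) and 27 (percentile 21.3), a ratio of 1.87 (counting interval 1.18 to 3.04). Its summit lies 54 bp inside the transcript, and the ATCAAAG printed above is 27 bp from it. *Rnf43*, an inhibitor that removes Wnt receptors, and *Bcl9*, a further coactivator, differed by 33.9 and 29.3 points. The *Rnf43* summit is 672 bp inside a transcript, and a second one, 227 bp upstream of another start, had 60 WT and 54 dKO fragments and differed by -10.4 points. *Ccnd3*, *Tbl1xr1*, *Dvl1* and *Aes* lay between 23.2 and 32.6 points. The counting interval of *Dvl1* (0.829 to 2.39) includes 1. The receptor gene *Fzd7* ranked higher in dKO, with 46 WT and 75 dKO fragments at one summit (-44.6 points) and 76 and 75 at another (-14.5 points). The dKO pileup and percentile (84.5) were the same for both, as happens where neighbouring WT peaks are paired with the same dKO peak.

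Of 51 shared promoters of chromatin regulators, 10 were members (19.6%), close to the 16.0% of all, and their median difference was 7.92 points. *Dnmt3a*, a de novo DNA methyltransferase, had 64 WT and 28 dKO fragments, and *Eed*, a subunit of Polycomb complex PRC2, had 90 and 38. *Ezh1*, a methyltransferase of the same complex, had 77 and 38. *Ino80* ranked higher in dKO (-25.6 points). The 51 promoters of this list were GC-rich, with a median GC content of 67.2%.

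Interferon and antigen presentation genes had 8 members among 45 shared promoters (17.8%, Wilson interval 9.29 to 31.3) and a median difference of 4.19 points. The share is close to the 16.0% of all shared promoters and the median lies below their 6.15 points. *Tapbp*, which encodes the tapasin of MHC class I loading, had 2 member summits, with 65 WT against 28 dKO fragments at one and 50 against 21 at the other. A further *Tapbp* summit differed by -8.08 points. The immunoproteasome genes *Psmb8* (37 and 15 fragments) and *Psmb10* (51 and 27) and the regulators *Irf7* (67 and 33) and *Trim25* (100 and 51) were members as well, with *Isg20* and *Rsad2*. A second *Psmb8* summit had 33 and 31 fragments and differed by -8.90 points, and *Psmb9*, a further immunoproteasome gene, was no member (70 and 49 fragments, 4.97 points). The counting intervals at the member summits of *Psmb8*, *Psmb10*, *Irf7*, *Isg20* and *Rsad2* include 1. The dKO peak of the *Psmb8* member stood at percentile 0.778 of its list.

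Effector and exhaustion genes leaned the other way. Of 31 shared promoters 4 were members (12.9%, Wilson interval 5.13 to 28.9) and 5 ranked 20 or more points higher in dKO, and the median difference was -1.44. The members were *Cd160*, an inhibitory receptor (57 WT and 21 dKO fragments), *Serpinb9*, which protects killer cells from granzyme B (67 and 29), *Il12rb2*, an interleukin 12 receptor chain (75 and 41), and *Tnfrsf9*. The costimulatory receptor gene *Tnfrsf9* had summits on both sides. The summit 112 bp upstream of a start had 59 WT and 30 dKO fragments and stood 27.8 points higher in WT, while the one 707 bp upstream had 40 and 45 and differed by -23.4 points. The others ranking higher in dKO were *Gzmb* (-56.3 points), *Ccl4* (-41.1), *Anxa2* (-24.5) and *Nkg7*. At the member summits of *Il12rb2* and *Tnfrsf9* the counting intervals include 1.

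Such a split within 1 gene, with differences of 20 points or more on both sides, occurred at 10 genes. It includes *Inpp5d*, which encodes the phosphatase SHIP1: a summit at 1 start had 57 WT and 26 dKO fragments (34.2 points), and a summit at another start 35 and 40 (-22.9 points). *Prkacb*, a catalytic subunit of protein kinase A, showed the same, with 43 and 23 fragments at a start whose surroundings held 81.6% GC and 45 and 50 at a start with 41.8% GC. *Inpp5d* and *Prkacb* were picked from the 10 after their values were seen. At *Dnajc27*, also among the 10, the WT summits had 44 and 92 fragments (-22.1 and 20.3 points). Both were set against 48 dKO fragments, as happens where neighbouring WT peaks are paired with the same dKO peak. In all, the members belonged to 1536 genes, and 43 genes had 2 or more member summits. Other genes named above also have a shared summit that was no member, with differences of 11.97 points at *Irf8*, 16.3 at *Gimap1*, 15.9 at *Isg20*, 16.7 and 8.31 at *Eed*, 8.67 at *Dgkz*, 8.10 at *Mcl1*, 7.92 at *Nfkb2* and 6.69 at *Mtap*. The difference was 3.32 points at *Stat3*, 2.26 at *Clasp2*, 1.83 at *Dnmt3a*, -0.620 at *Il12rb2*, -1.07 at *Rassf1*, -1.44 at *Rgs10* and -5.23 at *Ccnd3*. By fold enrichment, other named members that fell below 20 points include *Vps33a* (7.22), *Cd27* (9.47), *Socs1* (9.86), *Trim25* (10.5), *Lef1* (11.5), *Psmb10* (12.9), *Ubash3a* (13.8), *Cd5* (13.8), *Irf7* (15.03), *Lck* (15.2), *Il4ra* (15.3), *Cxcr4* (16.1), *Rnf43* (17.1) and *Cd8b1* (18.997).

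Gene families showed how unevenly the members were spread. None of the 41 shared histone promoters was a member (Wilson upper limit 8.57%), and their median difference was -6.86 points at a median GC content of 46.3%. Of 79 promoters of cytosolic ribosomal proteins 5 were members (6.33%), and of 78 promoters of respiratory chain genes 8 (10.3%). Proteasome subunits, with 7 of 43 (16.3%), were close to the 16.0% of all shared promoters. Genes of the Trim, Usp and Rnf series, many of which act in ubiquitin transfer or removal, had 27 of 130 (20.8%), and solute carriers 23 of 129 (17.8%). Zinc finger genes named Zfp had 31 of 235 (13.2%).

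**Figure D3:**
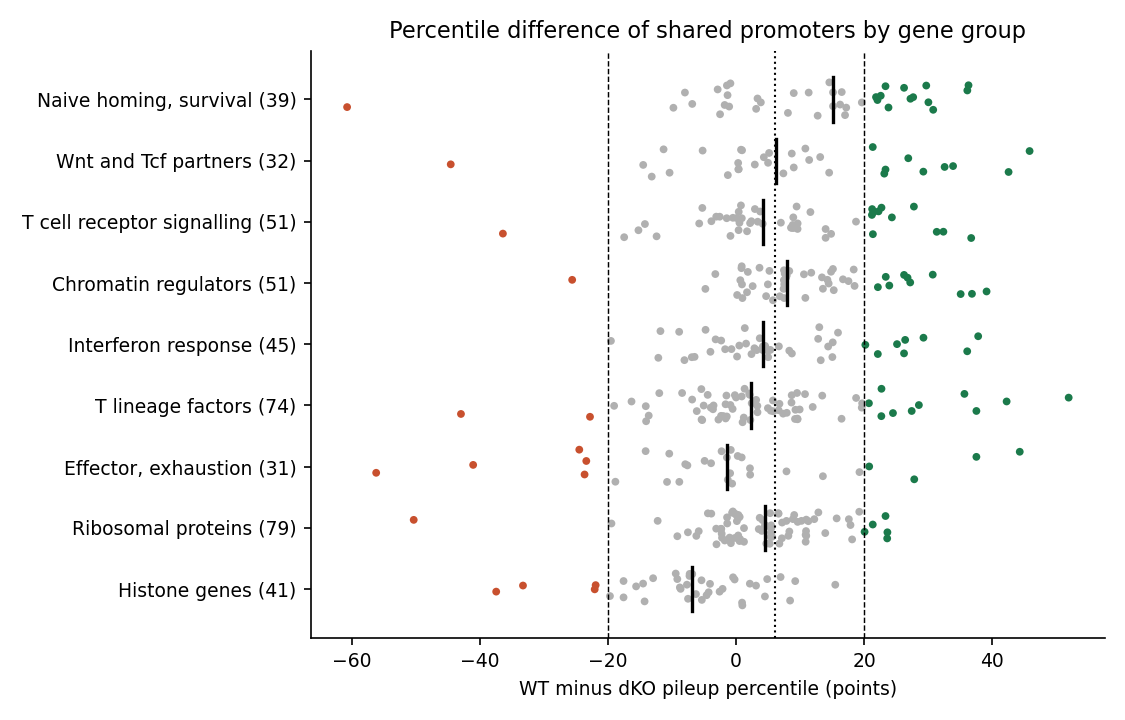
WT minus dKO pileup percentile of every shared promoter in 9 gene groups, with the number of promoters in brackets, members in green, promoters 20 or more points higher in dKO in orange, and the group median as a black bar. The dotted line is the median of all shared promoters (6.15 points) and the dashed lines are the 20-point thresholds; medians run from 15.1 for naïve homing and survival to -6.86 for histone genes.

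Within the promoter, the members lay much like the other shared promoters. Their summits had a median distance of 56 bp from the nearest start, against 67 bp over all shared promoters, and 1050 (66.5%, against 61.7% over all) lay within 100 bp of it. Upstream of the start lay 1140 (72.2%, against 74.1%). By annotation, 361 summits fell in an untranslated region (22.8%, against 19.8%), 263 in an intron (16.6%, against 16.8%) and 873 outside the gene's transcripts (55.3%, against 59.0%). The dKO summit was within 50 bp of the WT summit in 1346 members (85.2%, the same share as over all shared promoters), so the paired peaks mostly mark the same spot. In 40 members more than 1 dKO peak overlapped the WT peak. In 10 members the dKO peak was also paired with another WT promoter peak. The same held for 33 of the 163 promoters ranking higher in dKO and 122 of all 9884.

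The Tcf/Lef core ATCAAAG was rare in these promoters. On either strand within 100 bp of the WT summit, 27 members held it (1.71%, Wilson interval 1.18 to 2.47), against 157 of all 9884 shared promoters (1.59%, 1.36 to 1.85). Among the 163 ranking higher in dKO it was 6 (3.68%, 1.70 to 7.80). The shorter HMG core TCAAAG, which is part of ATCAAAG, was in 138 members (8.73%) and in 8.16% of all shared promoters. Without regard to GC content, the shares in members and in all thus have overlapping intervals. Promoters outside the member set, weighted to the members' distribution over deciles of GC content, held ATCAAAG in 1.19% and TCAAAG in 6.15%. At like GC content the members thus held TCAAAG more often, as their interval (7.44 to 10.2) lies above 6.15%. For ATCAAAG the weighted share of 1.19% lies within the members' interval, which reaches down to 1.18. This weighting was chosen after seeing the data, and the weighted shares have no interval of their own. Within 200 bp of the summit and without weighting, 3.10% of members and 3.23% of all shared promoters held ATCAAAG.

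The 8 printed core sites include genes of varied function. *Cd101*, an inhibitory surface protein of T cells, had 107 fragments in WT (percentile 86.1) and 32 in dKO (percentile 31.7), a ratio of 2.48 (counting interval 1.66 to 3.81), and its core lies 80 bp from the summit. *Myo18a*, an unconventional myosin, had 131 and 40 fragments. *Cd320*, a receptor for vitamin B12 uptake, had 75 and 30, and *Rcc2*, a regulator of chromosome condensation and Rac1, had 70 and 30. *Hmcn1*, which encodes a matrix protein, and the noncoding *Gm13842* had 53 and 22, and 52 and 23.

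A pair of promoter elements differed more. The SP/KLF box GGGCGG was in 60.8% of the members (Wilson interval 58.4 to 63.2) and 55.4% of all shared promoters, and the NFY box CCAAT in 26.1% (24.0 to 28.4) and 33.9%. In promoters outside the member set, weighted to the members' GC content as above, the share was 64.8% for GGGCGG and 33.4% for CCAAT. With that weighting the members held fewer of both boxes than other promoters.

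Further sequences are given with their shares in members and in all shared promoters. The ETS site CCGGAAG was in 17.5% of members and 17.8% of all, the RUNX site TGNGGT in 32.7% of both, and the CTCF core AGGGGGC in 12.5% of both. The E-boxes CACGTG and CAGCTG were in 10.2% and 11.7% of members, against 9.26% and 10.2% of all. For elements of general promoters, members against all had 3.48% and 4.04% for TGACGTCA (CRE), 3.61% and 4.11% for CGCATGCG (NRF1), 3.92% and 4.39% for AAGATGGC (YY1), 1.71% and 2.26% for TCTCGCGA (Kaiso) and 2.85% and 3.25% for TATAAA. Among inducible and lineage factors, the AP-1 site TGANTCA was in 2.22% of members (upper Wilson limit 3.07) against 3.39% of all, but 2.76% of other promoters at the members' GC content held it. The others gave 3.99% and 4.77% for GAAANNGAA (IRF), and 2.47% and 2.86% for the GATA factors' AGATAA. At the members' GC content, other promoters held TGNGGT in 30.1%, below the members' interval of 30.5 to 35.1, and CAGCTG in 9.72%, below 10.2 to 13.4. They held AGGGGGC in 14.8%, above the members' interval of 10.9 to 14.2, and TCTCGCGA in 2.55%, above 1.18 to 2.47. For the other sequences of this paragraph the weighted share lay within the members' interval. The weighted shares have no interval of their own, 17 sequences were searched, and these gaps were not tested. In the 163 promoters ranking higher in dKO, 18 held TGANTCA, 94 (57.7%) TGNGGT and 45 (27.6%) GGGCGG. N stands for any base, and both strands were searched in each case.

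Base composition differed with the difference in rank as well. The median GC content within 100 bp of the summit was 65.7% in members (95% binomial interval of the median 65.2 to 66.2), 62.2% over all shared promoters and 52.2% in those ranking higher in dKO. High CpG content, meaning a CpG frequency of at least 0.6 of that expected and at least 50% GC, was found in 1212 members (76.7%, Wilson interval 74.6 to 78.7) and in 73.4% of all shared promoters. Members were thus somewhat richer in GC, with little excess of CpG-rich promoters.

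Across deciles of GC content, the share of members went from 8.67% (Wilson interval 7.09 to 10.6) in the decile with the lowest GC, up to 49.8%, to 32.3% (29.3 to 35.4) in the decile from 72.6%. The median difference went from -0.00582 to 13.7 points. With ranks by fold enrichment the medians went from -0.203 to 10.7 points, and the depth-scaled pileup ratio from 0.957 to 1.23. Among promoters between WT percentiles 50 and 80, the share of members was 15.8% in the lowest quintile of GC content and 35.9% in the highest, so the gradient was present at similar WT strength.

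The same gradient was seen away from promoters. Over 11351 shared autosomal sites with no start within 1000 bp, the median difference went from -1.81 points in the lowest GC decile to 9.79 in the highest. Of these sites 15.6% ranked 20 or more points higher in WT and 8.09% in dKO. When each promoter's difference was taken relative to the median of its GC decile, 785 shared promoters passed 20 points in favour of WT, all of them among the 1580, and 277 in favour of dKO. The part of base composition in the difference between the pools was not tested.

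**Figure D4:**
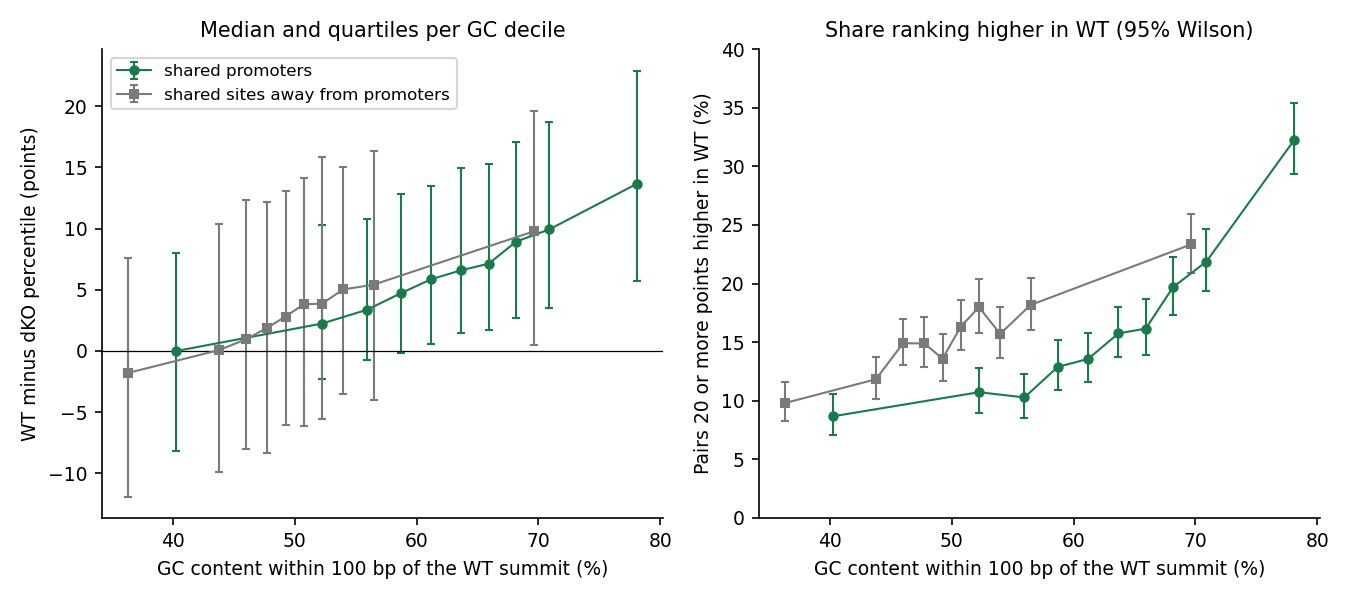
Left, median WT minus dKO pileup percentile with quartiles, and right, share of pairs 20 or more points higher in WT with 95% Wilson intervals, in deciles of GC content for 9884 shared promoters (green) and 11351 shared sites away from promoters (grey), each drawn at the middle of the decile's GC range. At promoters the median goes from about 0 to 13.7 points and the share from 8.67% to 32.3%.

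Named members kept different parts of their difference on that scale. *Prkcz*, with 71.6% GC, stood 67.1 points above the median of its decile, *Irf8* (66.2% GC) 44.9 and *Axin2* (66.7% GC) 35.5. *Cd101*, with 47.8% GC, stayed at 54.4 points and *Cd8b1*, with 55.7%, at 29.0. By contrast *Foxo1* (75.1% GC) was left with 10.8 points, *Dvl1* (80.6% GC) with 9.67 and *Maz* (68.2% GC) with 11.4. The list of naïve homing and survival genes, whose promoters had a median GC content of 57.2%, below that of all shared promoters, kept 9 of its 13 members. The T cell receptor list kept 4 of 11 and the Wnt list 5 of 9. The effector and exhaustion list kept 4 of 4 and the interferon list 6 of 8. T lineage transcription factors kept 6 of 10 and chromatin regulators 5 of 10. Over all members, 785 of 1580 (49.7%) were kept.

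Members were unevenly spread over the chromosomes. Chromosome 11 carried 224 of its 891 shared promoters as members (25.1%, Wilson interval 22.4 to 28.1), followed by chromosome 19 with 78 of 349 (22.4%), chromosome 15 with 79 of 364 (21.7%) and chromosome 5 with 127 of 653 (19.4%). The lowest share was that of chromosome 1, with 59 of 579 (10.2%, 7.98 to 12.9). GC content at the summits did not follow this order: the median was 61.7% on chromosome 11 and 62.2% on chromosome 1. The GC content of the surrounding 100 kb was higher on chromosome 11, with a median of 46.9% against 43.7%. Over all shared promoters the share of members went from 9.91% in the lowest decile of this content to 20.9% in the highest. By chromosome the 2 orders differed in part. Chromosome 15 had the highest median, 47.9%, with 21.7% members, chromosome 17 had 47.8% with 17.7%, and chromosome 7 had 47.5% with 13.1%.

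The shares were also taken at like regional GC content. In the quintile of promoters with the lowest GC content in the surrounding 100 kb, 17.9% of the promoters on chromosome 11 were members (Wilson interval 11.1 to 27.4), against 10.1% (8.86 to 11.6) on the other autosomes, with overlapping intervals. In the highest quintile the shares were 29.6% (24.3 to 35.5) on chromosome 11 and 19.7% (17.9 to 21.7) on the others. Relative to the GC decile at the summit, the median difference on chromosome 11 was 3.85 points, the highest of the autosomes, and that on chromosome 13 was -2.52, the lowest. Neighbouring promoters share their region and the same pools, so these intervals overstate the precision.

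These regional patterns depend on the ranked value, a comparison added after seeing the data. From the lowest to the highest decile of GC content in the surrounding 100 kb, the median difference went from 2.80 to 8.93 points by pileup, but from 6.83 to 2.15 points by fold enrichment over local background. By fold enrichment the median of chromosome 11 was 4.39 points, near the 4.17 of all shared promoters, and that of chromosome 1 was 4.98. The share passing 20 points by fold enrichment was still highest on chromosome 11, at 17.8%, against 10.2% on chromosome 1 and 13.3% over all.

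**Figure D5:**
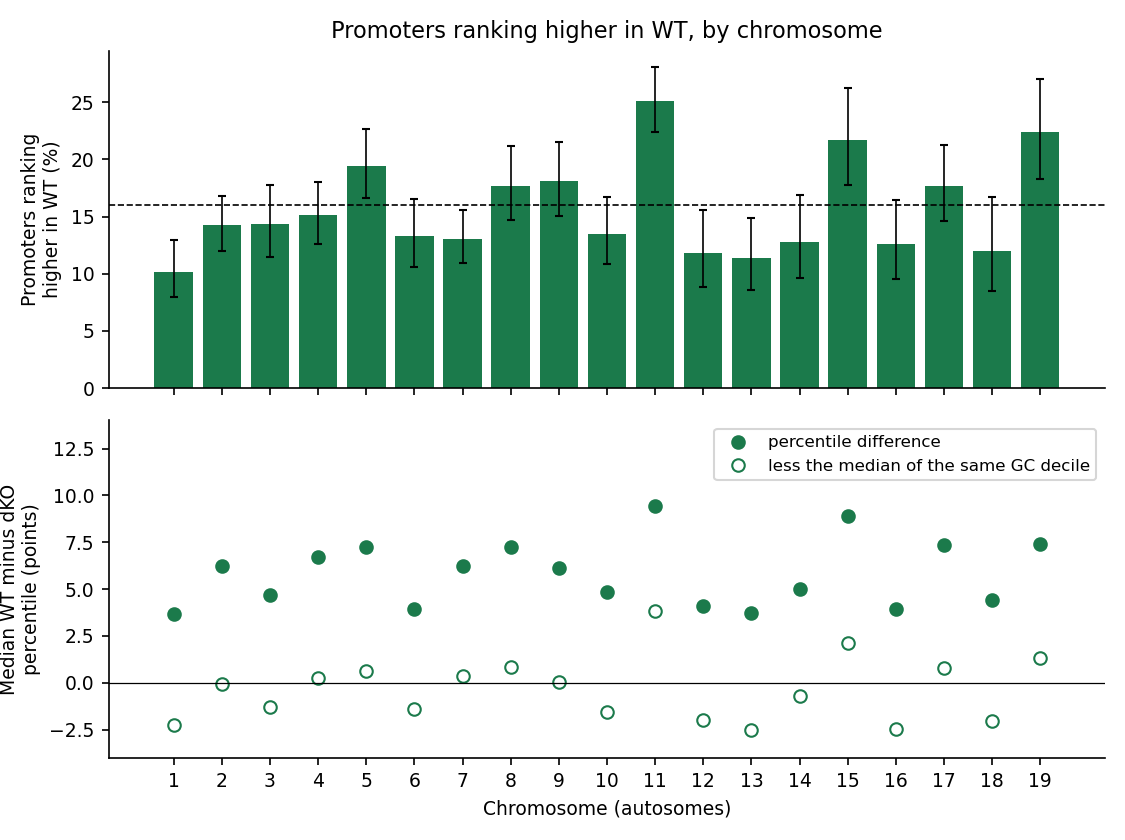
Top, share of shared promoters that rank 20 or more points higher in WT on each autosome, with 95% Wilson intervals and the share over all autosomes (16.0%) as a dashed line. Bottom, median WT minus dKO percentile per chromosome (filled) and the same relative to the median of promoters in the same GC decile (open); chromosome 11 is highest in both panels, at 25.1%, 9.45 points and 3.85 points.

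On a finer scale, members were found nearly everywhere. Of 187 windows of 5 Mb with at least 20 shared promoters, 6 held no member and 185 had a median difference above 0. The window with the highest share was that from 115 to 120 Mb on chromosome 11, with 30 members among 82 shared promoters (36.6%). It was followed by 145 to 150 Mb on chromosome 7 (14 of 39) and 120 to 125 Mb on chromosome 5 (23 of 65). *Socs3* lies in the first of these windows.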

How the data were processed

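The deposited data were 1 peak list for pooled WT and 1 for pooled dKO cells. Per the submitters' processing notes and the file headers, reads were checked with FastQC, aligned to mm9 with Bowtie2 2.2.5, and peaks were called with MACS2 2.1.1.20160309 in paired-end mode at p under 1e-05 without a control library. Each header names a duplicate-removed and a sorted alignment file of the same pool as input, and lists 2 times as many fragments as were kept. The deposited pileup is a signal, the coverage at the summit, and was taken as an unscaled count of kept fragments, on which the ratio intervals rest and which was not tested. The deposited fold enrichment is a ratio to local background. The deposited -log10 p-value is the caller's own test; the deposited q-value column was used as a score, since the headers say that q-values were not calculated although it holds values. Coordinates were used as deposited.

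Percentiles were average ranks within each full list. WT peaks overlapping a dKO peak by at least 1 bp, with the summit within 1000 bp of an annotated start (GENCODE M1 annotation of NCBIM37), were paired with the overlapping dKO peak of highest pileup. Each pair was named after the gene with the nearest start, protein-coding genes first. Named are the 12 members with the largest difference, up to 8 per gene list, the 6 with the highest WT percentile, up to 8 with ATCAAAG, and 3 pairs on each side of the threshold; other genes, among them the deleted ones, were added after their values were seen. A few of the selected members are not reported here. The members and lists were chosen with earlier results of these data known. Shares have 95% Wilson intervals over sites, ratios exact Clopper-Pearson intervals conditional on the summed fragments, and both cover counting error only. Regions were tested for no enrichment. The pairing was tested on simulated data. Python 3.11.15 with numpy, pandas, scipy, pysam and matplotlib was used. Alternatives changed the ranked value, the ranked peaks, overlap, pairing, promoter window, threshold, sequence window and motif.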

Additional observations from a re-analysis of the deposited data

How the results depend on the processing

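The counts of 1580 promoters in favour of WT and 163 in favour of dKO stayed within 1.5 times under ranks by fold enrichment or -log10 p, the stricter peak criteria, a 50% overlap, pairing by longest overlap, a 500 bp window, protein-coding starts only, and without chromosome 11. They became 902 and 362 with the 20000 peaks of highest -log10 p in each list, 506 and 545 with percentiles within the shared promoters alone, 2447 and 296 at 15 points, and 552 and 66 at 30 points. Relative to the median of the GC decile they were 785 and 277, and relative to the median of all pairs 850 and 339; these 2 settings and the one without chromosome 11 were chosen after seeing the data. The median difference of 6.15 points became 4.17 by fold enrichment, 5.54 by -log10 p, 5.36 with the stricter criteria, 2.775 with 20000 peaks, 0.258 within shared promoters and 5.79 without chromosome 11. The share of members with ATCAAAG was 0.886% within 50 bp and 3.10% within 200 bp, and 8.73% held TCAAAG. Of all shared promoters 0.658% and 3.23% held ATCAAAG in these windows, so members lay above all within 50 bp and below all within 200 bp. The median GC content was 66.3% within 50 bp and 63.3% within 200 bp. The share with high CpG content was 80.2% among members by ranks within shared promoters. Wider sequence windows and lower thresholds admit more by construction; the cause of the other shifts was not tested. All 81 named members stayed above 0 under the 3 other rankings, with 52 at 20 points or more by fold enrichment, 71 by -log10 p and 38 within shared promoters. No paired analysis was possible because the pooled lists carry no replicates, and for the same reason no replicate could be left out. Depth limits single promoters, since 816 of 1580 ratio intervals include 1.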
